A study of Homo sapiens with 12 samples.

Results

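Untreated cells of 2 human neuroblastoma lines were compared here, using 3 libraries labelled SK-N-BE(2) and 3 labelled SK-N-AS. They were chosen by their labels alone, as the untreated control columns of the deposited count table, and make up 6 of the 12 libraries of the series. Both are established lines from bone marrow metastases of neuroblastoma, kept overnight in culture. The labels give the genotype of both as WT. No group used here received ML210, a covalent inhibitor of the lipid peroxide reductase GPX4 given to the other 6 libraries, and whether the untreated cells received its solvent is not given in the sources used here. The series' design names SK-N-BE(2) as MYCN-amplified and SK-N-AS as a line without that amplification. Each MYCN status is represented by 1 line, so MYCN and every other difference between the lines cannot be told apart. The labels number the batches like the replicates, 1 to 3. They do not say whether the libraries of a line are separate cultures, and the tests thus refer to the spread among these libraries, which may be technical.

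Neuroblastoma arises from neural crest cells of the sympathetic nervous system and adrenal medulla, and its lines lie between 2 known states. Adrenergic cells are held by a core circuit of transcription factors that includes PHOX2A, HAND2 and GATA3, and they make catecholamines, secretory vesicles and neuronal cytoskeleton. Mesenchymal cells resemble crest precursors and fibroblasts, with AP-1, RUNX, PRRX1 and YAP1 activity, collagens, integrins and contractile proteins. MYCN and MYC are related transcription factors of growth that bind the same DNA site with their partner MAX. Their known targets include enzymes of glycolysis, serine and one-carbon metabolism, nucleotide synthesis, polyamine synthesis and amino acid uptake.

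MYCN, the transcription factor that defines the contrast between the lines, ran against the labels. Its gene, ENSG00000134323, lies on chromosome 2 from 15940564 to 15947007 on GRCh38. It was read at 3423, 3431 and 3598 CPM (counts scaled to a common library total) in libraries 1, 2 and 3 labelled SK-N-AS. In those labelled SK-N-BE(2) it stood at 0.198, 0.221 and 0.0825 CPM. The groups did not overlap, and the log2 difference, always given as SK-N-BE(2) minus SK-N-AS by label, was -14.35 (SE 0.175, edgeR adjusted p = 4.57e-11). The libraries labelled SK-N-BE(2) held 34 MYCN reads in all, so this SE may understate counting error. The library labels are kept below, as AS 1 to AS 3 and BE(2) 1 to BE(2) 3, and each label is given with its MYCN level. Where values are set against each other, or run from one to another, the MYCN-high libraries labelled SK-N-AS come first, and a signed number beside them is the log2 difference. Higher by label in SK-N-BE(2) therefore always means higher where MYCN was low. If the labels were exchanged, every direction by label would turn, while every direction by MYCN level would stay.

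The labelled tissue was checked against 11 markers of neuroblastoma: PHOX2A, HAND2, GATA3, ISL1, TH, DBH, DDC, CHGA, CHGB, STMN2 and ELAVL4. All 11 stood above 10 CPM on average in the MYCN-high libraries labelled SK-N-AS, and 9 did in the MYCN-low libraries labelled SK-N-BE(2). TH and DBH, the defining enzymes of noradrenaline synthesis, were the 2 below it, at 0.373 ± 0.223 and 5.04 ± 2.31 CPM (SD, n = 3). HAND2, a factor that marks the lineage, stood at 491 CPM there.

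The 6 libraries held between 57990008 and 83481963 counted reads. Of 18872 genes tested, 13321 passed (70.6%, edgeR quasi-likelihood test, adjusted p under 0.05), with 6694 higher (35.5%) and 6627 lower (35.1%) in the MYCN-low libraries labelled SK-N-BE(2). Scaled by library totals in place of TMM, 60.6% of the calls were higher there against 50.3%, and the median of all genes was 0.231 against 0.012 on the log2 scale. Because most genes passed, a second rule asked for a call and at least a 4-fold difference, which 3985 genes met (21.1%), 2207 higher (11.7%) and 1778 lower (9.42%). Among 13987 protein-coding genes the shares were 78.4% called, 39.6% higher and 38.7% lower, and 20.7% at 4-fold, 11.8% higher and 8.85% lower, and in 82.2% the 2 groups did not overlap. The counts of list members below are to be read against these shares. Correlations of log2 CPM lay from 0.9843 to 0.9905 within a label and from 0.8045 to 0.8362 between labels.

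**Figure D1:**
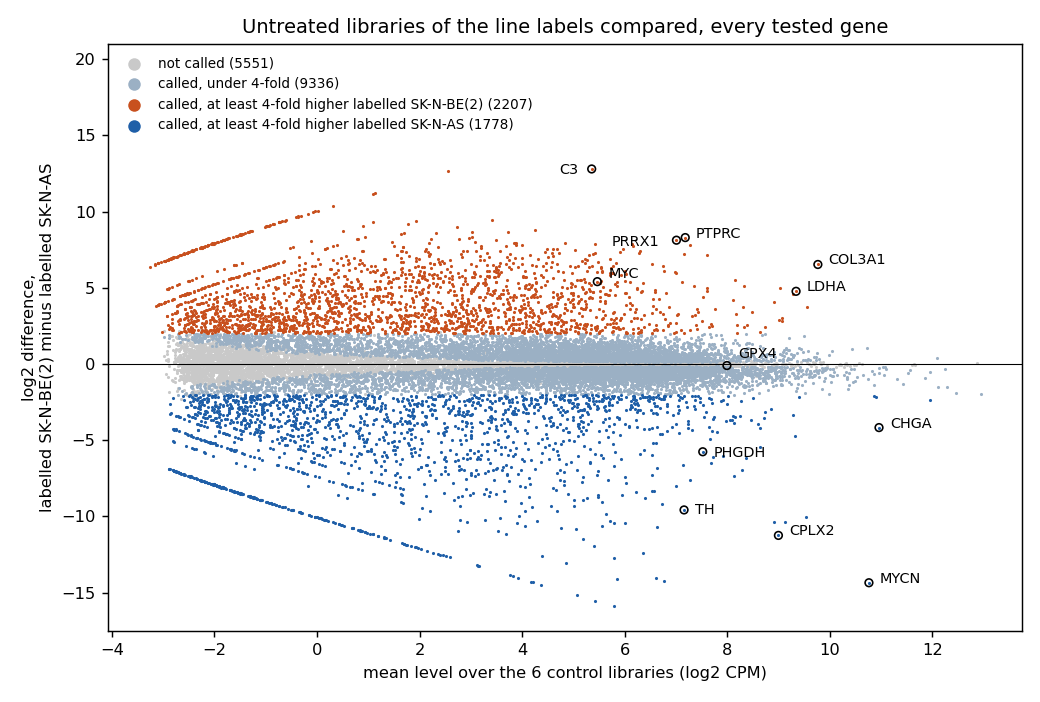
Mean level (log2 CPM, x axis) and log2 difference by label, SK-N-BE(2) minus SK-N-AS (y axis), of every gene tested, with genes past the test and 4-fold in colour. Fitted values of genes with no reads in a group depend on the prior count; 2207 genes lie at least 4-fold above 0 and 1778 at least 4-fold below it, where MYCN is the gene named at -14.35.

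Genes read almost only under one label were looked at in the other. They were protein-coding genes of at least 50 CPM in each library of one label and under 3% of that label's mean in each library of the other, so the rule bounds their percentages. Over 52 such genes of the MYCN-low libraries labelled SK-N-BE(2), the median level was 0.371%, 1.67% and 1.39% of that label's mean in AS 1, AS 2 and AS 3. Over 74 genes of the MYCN-high label it was 0.393%, 0.338% and 0.548% in BE(2) 1, BE(2) 2 and BE(2) 3. Whether these low levels bear on the results was not tested. Without AS 2 and AS 3, 5883 genes were higher and 5786 lower. A log2 difference that moved by over 0.58, which is 1.5-fold, when 1 library was left out is given again in the same paragraph.

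MYCN and MYC ran in opposite directions between the lines. MYC stood at 2.36, 2.58 and 1.15 CPM in AS 1, AS 2 and AS 3, and at 80.7, 85.3 and 93.3 CPM in BE(2) 1, BE(2) 2 and BE(2) 3, a log2 difference of 5.41 (SE 0.274, edgeR adjusted p = 4.69e-06), so it was high where MYCN was low. Per kilobase of exon, the prevailing member differed in level: MYCN reached 1339 RPKM (CPM divided by the exon length in kilobases) in the MYCN-high libraries, and MYC 28.8 RPKM in the MYCN-low ones. MYCL, the third family member, was low in both groups (3.97 against 1.61 CPM, log2 difference -1.30).

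MYC proteins work in a network of partners that bind MAX, and of its 12 tested members 4 were higher, 5 lower and 3 not called, with a median log2 difference of -0.04 (0.18 with library totals). MAX itself differed by 0.26 and MGA, a MAX partner that opposes MYC, by 0.32 (edgeR adjusted p = 0.0517 with a replicate block), both higher in the MYCN-low libraries labelled SK-N-BE(2). Among the MXD repressors, MXD4 was higher there (58.9 to 134 CPM, 1.19), and MXD1, MXD3 and the related repressor MNT were lower (-0.62, -0.52 and -0.95). MXI1, MLX and MLXIP were not called, at 0.03, -0.11 and 0.12. MLXIPL had no reads. MLX was called without AS 1 (edgeR adjusted p = 0.0463). MGA was not called without AS 1, AS 2, AS 3, BE(2) 1 or BE(2) 3 (edgeR adjusted p = 0.0687 to 0.118).

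The 12 tested genes listed as neighbours of MYCN on chromosome 2 did not all share its direction. Their distances from MYCN are not reported here. MYCNOS, the antisense transcript that overlaps MYCN, had 24041 reads in the MYCN-high libraries and 1 in the others, a ratio of 23946 (95% counting interval 4297 to 945841). MYCNOS shares 5.18% of its exon length with other genes, and MYCN 3.77%. Whether counting used strand is not given in the sources used here, so reads in the shared part cannot be told apart. GACAT3, a long noncoding RNA of the same region, had 3645 reads against 0, at least 1210-fold lower in the MYCN-low libraries labelled SK-N-BE(2) at a floor of 3 reads over the group. DDX1, the RNA helicase often amplified together with MYCN, differed far less, from 379 ± 13.8 to 178 ± 8.44 CPM (-1.09), and NBAS, further along, by -0.55. TRIB2, LPIN1 and GEN1 were also lower, at -1.80, -0.96 and -0.51. VSNL1, KCNS3, CYRIA and SMC6 were higher in the MYCN-low libraries, at 6.03, 3.21, 1.30 (edgeR adjusted p = 0.0861 with a replicate block) and 0.53. Of the 12 neighbours tested, 4 were thus higher and 8 lower. ODC1, the rate-limiting enzyme of polyamine synthesis and a known MYC target, is among the lower ones (683 to 206 CPM, -1.73). CYRIA was not called without AS 2, AS 3, BE(2) 1 or BE(2) 3 (edgeR adjusted p = 0.056 to 0.165).

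GPX4, the target of the compound studied in the series, stood at 279, 259 and 254 CPM in AS 1, AS 2 and AS 3 and at 245, 258 and 238 CPM in BE(2) 1, BE(2) 2 and BE(2) 3. The groups overlapped, and the log2 difference of -0.10 (SE 0.0618) did not pass the test (edgeR adjusted p = 0.186). With library totals it was 0.12, also not called.

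Many adrenergic transcription factors were read in both lines, with exceptions given below, and most were lower where MYCN was low. All 26 were called, 5 higher and 21 lower in the MYCN-low libraries labelled SK-N-BE(2), with a median log2 difference of -0.90. Of these, 7 reached 4-fold (26.9% against 20.7% of protein-coding genes). PHOX2A, the homeodomain factor that switches on the noradrenergic genes, fell from 604, 597 and 589 to 119, 140.1 and 128 CPM by label (-2.21, SE 0.0714, edgeR adjusted p = 4.57e-09). HAND1 and HAND2, basic helix-loop-helix factors of the sympathetic lineage, differed unequally: HAND1 differed by -3.76 (469 to 34.7 CPM), while HAND2 differed by only -0.21 (0.01 with library totals, where it was not called). GATA2 stood at 1161 against 315 CPM (-1.88) and GATA3 at 257 against 149 CPM (-0.78).

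TFAP2B, an AP-2 factor of the sympathoadrenal lineage, was lower in the MYCN-low libraries labelled SK-N-BE(2), at -2.25. The 2 widest differences of the adrenergic list were both of this direction. ZNF536, a zinc finger repressor of neuronal differentiation, stood at 36.8, 43.1 and 37.1 CPM where MYCN was high and at 0.0988, 0 and 0 CPM where it was low (-10.30). SIX3, a homeobox factor, stood at 35.2, 44.2 and 43.6 against 0.395, 0.442 and 0.564 CPM (-6.44). Higher in the MYCN-low libraries were SOX11 (3.9 to 95.2 CPM, 4.60), a factor of neural precursors, and TBX2 (1.26), DACH1 (1.08) and MEIS2 (0.95). ZNF536 came to a log2 difference of -14.43 without BE(2) 1, -9.71 without BE(2) 2 and -9.71 without BE(2) 3.

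Mesenchymal transcription factors were mostly higher where MYCN was low. Of 28 tested, 18 were higher, 7 lower and 3 not called in the libraries labelled SK-N-BE(2), with a median log2 difference of 1.33 and 12 at least 4-fold higher. PRRX1, the homeodomain factor known to drive the mesenchymal state, stood at 0.0257, 1.5 and 1.35 CPM in AS 1, AS 2 and AS 3 and at 271, 251 and 250 CPM in BE(2) 1, BE(2) 2 and BE(2) 3 (8.13, SE 0.744, edgeR adjusted p = 0.00047). No value of one group came near the other, but AS 1 lay well below AS 2 and AS 3. YAP1, the coactivator of the Hippo pathway, rose by label from 0.219, 1.03 and 1.14 to 68.3, 64.6 and 60.4 CPM (6.38), and its paralogue WWTR1, also called TAZ, from 3.31 to 46.9 CPM (3.83). RUNX1 and RUNX2 differed by 4.72 and 5.92. TWIST2 differed by 5.94, whereas TWIST1, known as a partner of amplified MYCN, stood at 127 against 143 CPM and was not called (0.17). PRRX1 came to a log2 difference of 7.46 without AS 1, RUNX2 to 5.24 without AS 1 and 6.86 without AS 3, and TWIST2 to 5.27 without AS 1.

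AP-1 factors did not move together. FOSL1 was higher in the MYCN-low libraries labelled SK-N-BE(2), from 0.76, 2.15 and 1.71 to 43.2, 35.9 and 30.2 CPM (4.58). JUN was lower, from 165, 152 and 143 to 58, 54.4 and 69.3 CPM (-1.34), as was JUNB (-0.45, lost with library totals), and FOSL2 was not called (-0.18). Among the factors of epithelial to mesenchymal transition, SNAI1 and SNAI2 were higher (2.02 and 1.11), ZEB2 slightly so (0.27, edgeR adjusted p = 0.0607 with a replicate block) and ZEB1 lower (-0.76). TBX18, a factor of mesenchymal progenitors, and NR3C1, the glucocorticoid receptor, were higher by 3.55 and 3.70. SMAD3, the TGF-beta signal transducer, and ID1, a target of BMP signals, were higher by 1.78 and 1.33. ZEB2 was not called without AS 1, AS 3 or BE(2) 1 (edgeR adjusted p = 0.0607 to 0.114).

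Genes of crest and glial precursors gave no common direction, with 5 higher, 7 lower and 2 not called of 14 tested. The defining crest factors were at or near 0 in both groups: SOX10, PAX3, FOXD3 and TFAP2A did not have enough reads to be tested. NES, the intermediate filament nestin of neural progenitors, rose by label from 75.9, 123 and 107 to 563, 511 and 559 CPM (2.42). SOX9, a factor of crest and cartilage, and MSX1, a homeobox factor of crest mesenchyme, were higher in the MYCN-low libraries labelled SK-N-BE(2) by 2.31 and 4.29. MSX2, its paralogue, went the other way (10.6 to 0.43 CPM, -4.64), as did the endothelin receptor EDNRA (-4.40) against EDNRB (1.98). S100B, a glial calcium-binding protein, had 745 reads where MYCN was high and 3 where it was low.

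HOX genes, which keep a cell's position along the body axis, set the lines apart. Only members of the C and D clusters passed the filter on low counts, 15 of 39, and 3 of these were higher, 11 lower and 1 not called in the MYCN-low libraries labelled SK-N-BE(2). The most 5' genes of the C cluster were read almost only in the MYCN-high libraries: HOXC10 stood at 32.2, 34.4 and 32.5 against 0.0659, 0 and 0 CPM (-10.60), and HOXC11 and HOXC13 had 650 and 324 reads against 0, which is at least 216-fold and 108-fold lower. HOXD13, at the end of the D cluster, had 1328 reads against 0, at least 441-fold lower. HOXD8 and HOXD9, inside the same cluster, were higher in the MYCN-low libraries, HOXD8 from 13.6 to 55 CPM (2.02) and HOXD9 from 16.8 to 37.1 CPM (1.14). HOXC8, HOXC9 and HOXC4 were lower, at -3.47, -2.57 and -2.07. Exons of neighbouring HOX transcripts overlap, over 74.1% of the exon length of HOXD3 and 80.5% of HOXD4, so those counts are uncertain. HOXC10 came to a log2 difference of -14.19 without BE(2) 1.

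Most genes of the catecholamine pathway were lower where MYCN was low. Of 17 genes, 12 were lower, 4 higher and 1 not called in the libraries labelled SK-N-BE(2), with 6 at least 4-fold lower and 3 at least 4-fold higher (52.9% against 20.7% of protein-coding genes). TH, tyrosine hydroxylase and the rate-limiting enzyme, stood at 262, 294 and 300.2 CPM in AS 1, AS 2 and AS 3 and at 0.346, 0.608 and 0.165 CPM in BE(2) 1, BE(2) 2 and BE(2) 3 (-9.57, SE 0.278, edgeR adjusted p = 2.43e-07). DDC, which makes dopamine, differed less (402, 445 and 472 against 59.8, 69.7 and 83.2 CPM, -2.63). DBH, which turns dopamine into noradrenaline, stood at 629, 607 and 620.1 against 3.23, 4.25 and 7.64 CPM (-6.93). PNMT, the enzyme for adrenaline, was near 1 CPM in both groups and not called. No library of one group overlapped the other in any of the first 3 enzymes. TH came to a log2 difference of -10.17 without BE(2) 2.

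Of the transporters of the pathway 3 were lower and 1 higher where MYCN was low, and both monoamine oxidases were higher. The vesicular monoamine transporters SLC18A1 and SLC18A2 differed by -4.14 and -5.08, and the noradrenaline transporter SLC6A2, which takes up MIBG in imaging and therapy, fell by label from 413, 408 and 371 to 14.3, 12.7 and 28.7 CPM (-4.42). SLC18A2 shares 56.1% of its exon length with other genes, which leaves its count uncertain. The dopamine transporter SLC6A3 was higher, from 0.101 to 1.3 CPM (3.62). CYB561, which supplies electrons for DBH in the vesicle, differed by -1.55. For tetrahydrobiopterin, the cofactor of TH, GCH1 and PTS were lower (-0.82, lost with library totals, and -1.98) and SPR higher (1.18). Monoamine oxidase MAOA was higher in the MYCN-low libraries labelled SK-N-BE(2), from 1.71, 3.12 and 3.92 to 46.6, 44.6 and 42.4 CPM (3.94), and MAOB from 0.152 to 4.31 CPM (4.85). SLC6A3 came to a log2 difference of 4.33 without AS 1. GCH1 was not called without BE(2) 1 or BE(2) 2 (edgeR adjusted p = 0.0573 to 0.058).

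Secretory vesicle genes were mostly lower where MYCN was low as well. Of 23 synaptic vesicle genes tested, 17 were lower, 5 higher and 1 not called, with a median log2 difference of -1.79, and of 16 dense-core vesicle genes 13 were lower and 3 higher, with a median of -1.99. CHGA, the main granin of chromaffin granules, stood at 3853, 3908 and 3587 CPM where MYCN was high and at 98.3, 174 and 359 CPM where it was low (-4.17, SE 0.574, edgeR adjusted p = 0.00225). CHGB and SCG3 differed by -4.71 and -4.55, while SCG2, another granin, remained at 1188 against 948 CPM (-0.33, lost with library totals) and VGF at 1433 against 641 CPM (-1.16). CPLX2, complexin, which clamps vesicle fusion, stood at 1074, 1020.0 and 979 against 0.247, 0.304 and 0.687 CPM (-11.24). SYN1, which tethers vesicles, and SYP, synaptophysin, were lower, at -5.47 and -4.23, as was CADPS, needed to prime dense-core vesicles (-6.74). CHGA came to a log2 difference of -4.81 without BE(2) 3, CHGB to -5.33 without BE(2) 3, and CPLX2 to -11.85 without BE(2) 3. VGF was not called without BE(2) 1 (edgeR adjusted p = 0.054).

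Not all of the secretory genes were low there. PAM, which amidates peptide hormones, was higher in the MYCN-low libraries labelled SK-N-BE(2) (109.5, 129 and 129 against 959.8, 934 and 819 CPM, 2.88). CPE, the carboxypeptidase that trims prohormones, rose by label from 1.4 to 31.2 CPM (4.50). Among the peptides, VIP was higher (31.7, 68 and 62.9 against 535, 570.3 and 469 CPM, 3.28), and NPY and GAL were lower (-2.07 and -1.03). The release proteins RIMS1 and RIMS2 ran opposite, at 3.81 and -5.15. SV2A and SYT4 were higher by 0.36 and 1.37.

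The promoters of CHGA and SYN1 are shown because both carry the full cAMP response element, TGACGTCA, which is bound by CREB and ATF factors. Each run gives the 250 bases before the gene's start from RefSeq on GRCh38.p14, 5′ to 3′ on the gene's strand, with the element in capitals. CHGA lies on the plus strand at chr14:92922900-92923149 and SYN1 on the minus strand at chrX:47619858-47620107.
CHGA: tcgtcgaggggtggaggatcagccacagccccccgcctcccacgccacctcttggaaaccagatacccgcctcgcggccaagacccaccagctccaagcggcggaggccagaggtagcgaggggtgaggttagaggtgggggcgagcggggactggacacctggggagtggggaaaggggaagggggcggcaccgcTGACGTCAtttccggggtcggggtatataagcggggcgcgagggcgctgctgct
SYN1: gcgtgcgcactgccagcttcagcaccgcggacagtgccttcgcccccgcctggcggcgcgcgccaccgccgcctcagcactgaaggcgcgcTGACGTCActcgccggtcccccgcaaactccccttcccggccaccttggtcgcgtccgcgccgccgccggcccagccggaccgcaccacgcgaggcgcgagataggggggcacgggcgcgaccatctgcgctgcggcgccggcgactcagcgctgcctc
The element starts 54 bases before the start of CHGA and 159 bases before that of SYN1. Both strands were searched. It was found in 1.77% of 27305 promoters, 2.87% of those of protein-coding genes tested, 3.18% of genes at least 4-fold lower and 1.99% of those at least 4-fold higher in the MYCN-low libraries labelled SK-N-BE(2). Of 14 dense-core vesicle promoters matched, 4 held it, of 19 synaptic vesicle promoters 1 and of 10 catecholamine promoters 1. The motif was chosen after the expression values were seen, and a match is a description of the letters only.

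The neuronal cytoskeleton showed the same direction in 18 of 22 genes, with 14 at least 4-fold lower in the MYCN-low libraries labelled SK-N-BE(2) and a median log2 difference of -3.18. KIF1A, the motor that carries vesicle precursors along axons, stood at 956, 1008 and 935 CPM where MYCN was high and at 0.461, 0.525 and 1.2 CPM where it was low (-10.35, SE 0.306, edgeR adjusted p = 4.19e-07). DCX, doublecortin of migrating neurons, and ELAVL3, a neuronal RNA-binding protein, differed by -8.80 and -7.99. Of the neurofilaments, NEFL stood at 759 against 41.3 CPM (-4.20), NEFM at -6.14 and NEFH at -2.94 on the log2 scale. STMN2 and STMN4, tubulin-binding stathmins, differed by -5.47 and -7.17. GAP43, a growth cone protein, fell by label from 218 to 10.6 CPM (-4.36). Against this, MAP1B, a microtubule protein of growing axons, was not called at 608 ± 58.7 against 599.6 ± 101 CPM, and DPYSL3, which guides growth cones, was slightly higher (0.30). KIF1A came to a log2 difference of -10.94 without BE(2) 3, DCX to -9.50 without BE(2) 3, and ELAVL3 to -9.20 without BE(2) 3. STMN4 came to a log2 difference of -8.45 without BE(2) 2. DPYSL3 was not called without AS 1 or BE(2) 3 (edgeR adjusted p = 0.0583 to 0.0723).

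Voltage-gated channels differed in both directions. Of 31 tested, 10 were higher, 17 lower and 4 not called, with 5 at least 4-fold higher and 9 at least 4-fold lower where MYCN was low. The sodium channel subunit SCN3B stood at 184, 183 and 185 against 0.971, 0.387 and 0.399 CPM (-8.33), whereas the pore-forming SCN9A rose by label from 15.8, 23.5 and 22.5 to 119.6, 92.6 and 104 CPM (2.36). The calcium channel subunit CACNA2D2 differed by -4.07. Of the T-type calcium channels, CACNA1G was read mainly in the MYCN-low libraries labelled SK-N-BE(2) (0.577 to 25.4 CPM, 5.49). CACNA1H had 451 reads in the MYCN-high libraries and 0 in the others, at least 150-fold lower. HCN2, a pacemaker channel, was lower (-1.33). KCNH2, the ERG potassium channel, had the highest mean level of the list and differed by -1.70.

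**Figure D2:**
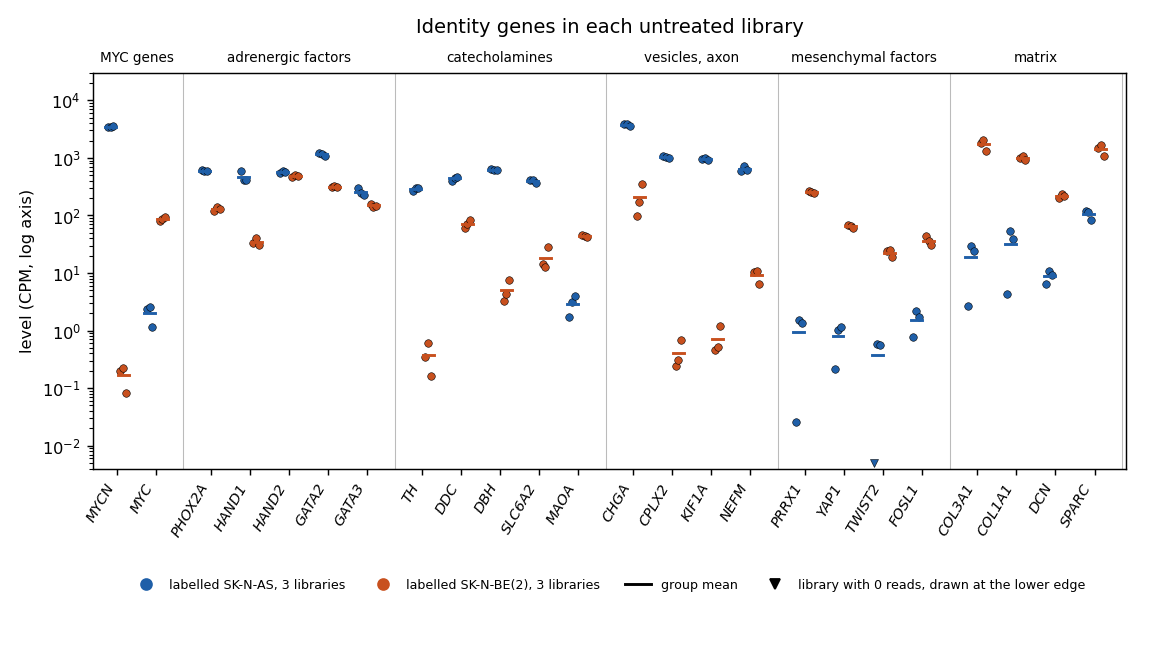
Level in CPM on a log axis of genes of cell identity in each of the 6 untreated libraries, coloured by label, with the mean as a bar. TH, DBH and KIF1A are higher in the 3 MYCN-high libraries labelled SK-N-AS, PRRX1, YAP1 and COL3A1 in the 3 MYCN-low libraries labelled SK-N-BE(2), and AS 1 lies lowest in PRRX1 and COL3A1. A triangle at the lower edge stands for a library with 0 reads.

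Extracellular matrix genes were higher where MYCN was low in 24 of 33 tested, with 6 lower, 3 not called and 16 at least 4-fold higher (median 1.98). COL3A1, a fibrillar collagen, stood at 2.65, 29.3 and 24.4 CPM in AS 1, AS 2 and AS 3 and at 1791, 2080.0 and 1314 CPM in BE(2) 1, BE(2) 2 and BE(2) 3 (6.53, SE 1.05, edgeR adjusted p = 0.00401). COL1A1 stood at 4.29, 54.2 and 38.9 against 1013, 1091 and 929 CPM (4.96). Its partner chain in collagen I, COL1A2, had too few reads in either group to be tested, at 0.0413 against 0.115 CPM. Of the other structural genes, COL6A2 differed by 4.09, SPARC by 3.72, the adhesive glycoproteins FN1 and TNC by 3.35 and 5.41, and the proteoglycans LUM and DCN by 4.23 and 4.64. LOXL2, which crosslinks collagen, differed by 4.74, while LOX, LOXL1 and LOXL3 were not called. Basement membrane genes did not share the direction: COL4A1 and COL4A2 were lower, at -1.82 and -2.29, and LAMA4, a laminin chain, stood at 59.5 against 0.155 CPM (-8.53). LAMB1 and LAMC1, which pair with it, were higher (0.56 and 0.59). TNC came to a log2 difference of 4.77 without AS 1 and 6.07 without AS 2.

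All 27 integrins, cadherins and related adhesion genes tested were called, 19 higher and 8 lower in the MYCN-low libraries labelled SK-N-BE(2). ITGA8, ITGA3 and ITGA5, alpha chains that bind matrix proteins, differed by 6.89, 4.99 and 4.42, and their shared beta chain ITGB1 by 1.08 (433 to 918 CPM). CD44, the hyaluronan receptor, stood at 1.78, 7.24 and 5.39 against 155, 174 and 108 CPM (4.94). The neural adhesion molecules ran the other way: L1CAM fell by label from 1101, 1217 and 1075 to 120.2, 104 and 106 CPM (-3.36) and NCAM1 from 386, 398 and 393 to 38.8, 34.4 and 34.8 CPM (-3.45). ITGA9 and CNTN1 were also lower (-4.80 and -2.07). CDH2, N-cadherin, was well read in both groups (0.59), and CDH11, of mesenchymal cells, was higher where MYCN was low (2.22). ITGA5 came to a log2 difference of 5.04 without AS 2.

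Actin and YAP target genes were higher in 15 of 25 tested, lower in 3 and not called in 7. Vimentin, VIM, the intermediate filament of mesenchymal cells, rose by label from 134, 148 and 123 to 808, 704 and 654 CPM (2.42), and FLNA, an actin crosslinker, from 929 to 1858 CPM (1.00). CCN1 and AMOTL2, direct targets of YAP, were higher by 4.32 and 3.69, and TEAD4, its DNA-binding partner, by 3.96. CCN2 and ANKRD1, also direct targets, stood near or below 1 CPM in both group means and were not called (-0.97 and -1.56), although ANKRD1 was with a replicate block (edgeR adjusted p = 0.0347). The smooth muscle genes ACTA2 and TAGLN were low in both groups and not called (3.29 to 6.42 and 1.53 to 1.45 CPM), and CNN1 was lower (-2.37). AMOTL1 was lower, from 418 to 98.6 CPM (-2.08). ACTA2 was called, at 1.07, with a replicate block (edgeR adjusted p = 0.00779), and without AS 1 both ACTA2 and TAGLN were, at 1.29 and 0.73 (edgeR adjusted p = 0.0205 and 0.0424). ANKRD1 was called without AS 3 or BE(2) 1 and CCN2 without BE(2) 1 (edgeR adjusted p = 0.0222, 0.0484 and 0.0257). CNN1 came to a log2 difference of -3.34 without BE(2) 1.

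Receptor tyrosine kinases differed in both directions, with 15 higher, 9 lower and 3 not called of 27 tested. ALK, the receptor mutated in familial neuroblastoma, stood at 13.3, 20.7 and 18.6 CPM where MYCN was high and at 0.0659, 0.111 and 0.165 CPM where it was low (-7.21), and its relative LTK was lower too (-3.71). RET, the GDNF family receptor, was high in both (519 against 721 CPM, 0.47). NTRK3, a neurotrophin receptor, was lower in the MYCN-low libraries labelled SK-N-BE(2) (-5.08), and NTRK2 was at or near 0 in all 6. The receptors of mesenchymal cells PDGFRA and AXL differed by 5.16 and 3.85. MET rose by label from 0, 0.515 and 0.339 to 9.55, 8.25 and 6.08 CPM (4.85). HGF, its ligand, stood at 52.5, 47.5 and 48.6 against 1220.0, 1201 and 1178 CPM (4.60), so ligand and receptor were both higher where MYCN was low. Of the FGF receptors, FGFR4 was higher (3.24), FGFR2 lower (-5.67) and FGFR1 slightly higher (0.44), and ROR2, a Wnt receptor, was lower (-2.09). MET came to a log2 difference of 4.18 without AS 1 and 5.61 without AS 2, and FGFR2 to -6.99 without BE(2) 3.

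MHC class I genes, which present peptides to T cells, were higher in 14 of 18, with 1 lower and 3 not called in the MYCN-low libraries labelled SK-N-BE(2), and 8 were at least 4-fold higher. The classical genes were unequal: HLA-B stood at 1.52, 0.936 and 1.08 against 38.2, 58.3 and 30.9 CPM (5.16), while HLA-C differed by 0.71. These genes are highly alike and polymorphic, so reads may be split between them. HLA-E differed by 4.24, and B2M, their shared light chain, by 0.27. The immunoproteasome subunits PSMB8 and PSMB9 differed by 3.72 and 5.20, and the peptide transporter TAP1 by 4.00, whereas its partner TAP2 was not called at 0.04. The chaperones CALR and PDIA3 were not called, and CANX was lower (-0.39). CALR was called without BE(2) 3, and PDIA3 without AS 2, BE(2) 1 or BE(2) 2 (edgeR adjusted p = 0.0199 to 0.0472). B2M was not called without BE(2) 2 (edgeR adjusted p = 0.051).

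**Figure D3:**
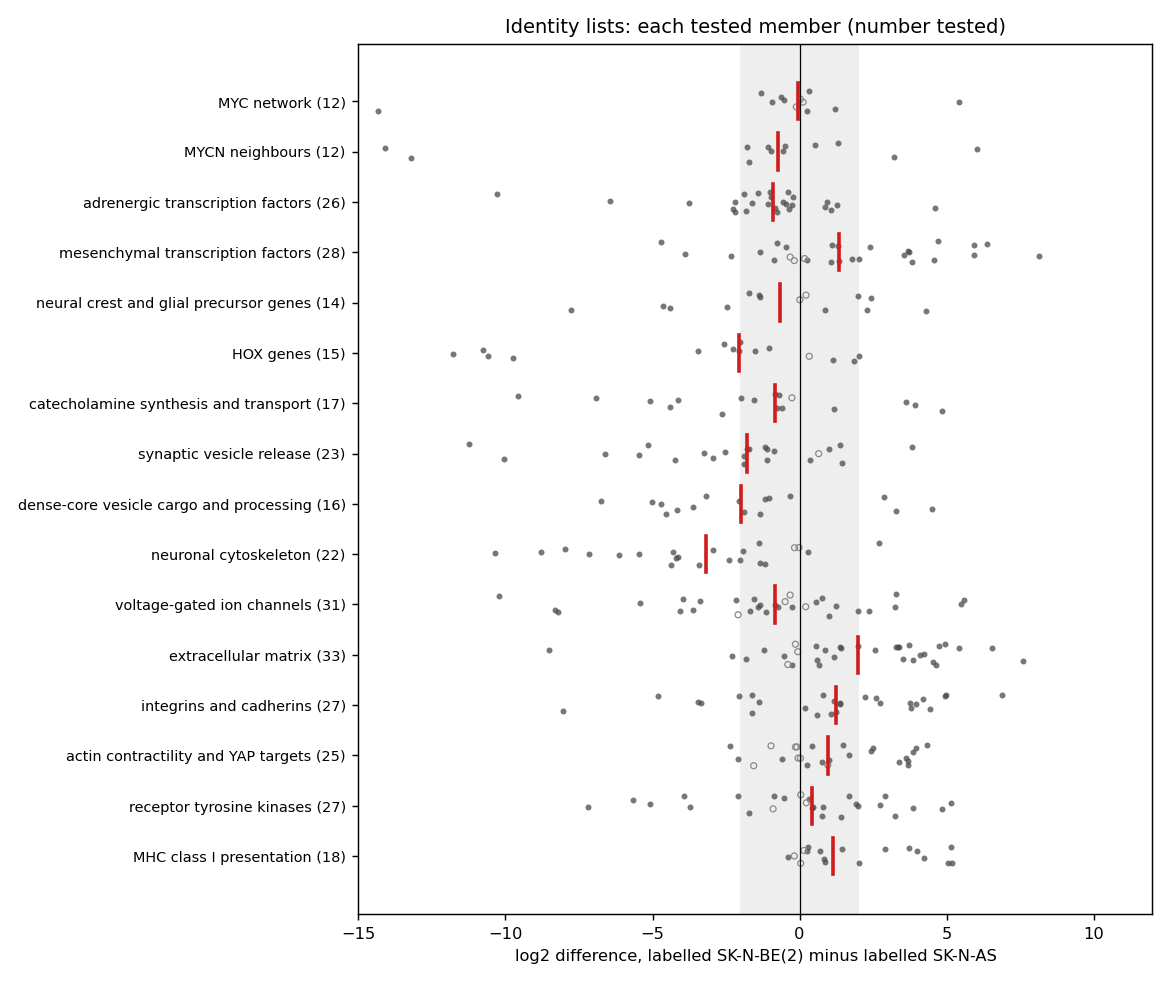
Log2 difference by label, SK-N-BE(2) minus SK-N-AS, of each tested member of the identity lists (x axis), with 1 row per list, a bar at the list's median, open circles for members not called and a grey band for less than 4-fold. Medians run from -3.18 for the neuronal cytoskeleton to 1.98 for the extracellular matrix. Fitted values of genes with 0 reads in a group depend on the prior count.

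Markers of other cell types were read beside these lists, since part of them overlaps with mesenchymal identity. Of 14 blood markers only 3 were tested: PTPRC, the leukocyte phosphatase CD45, stood at 0, 1.59 and 1.29 against 282, 264 and 324 CPM (8.30), CD14 was lower (-2.14) and CSF1R stayed under 1 CPM. The defining markers MS4A1, HBB and PF4 had 0 reads in all 6 libraries. The summed level of the blood list lay from 1.52 to 3.48 CPM in the MYCN-high libraries and from 264 to 325 CPM in the MYCN-low ones, nearly all of it PTPRC. Fibroblast and muscle markers summed to 506 to 628 and 1969 to 2283 CPM, with 7 of 9 higher, 1 lower and 1 not called; FAP rose by label from 0.335 to 26.4 CPM (6.36) and THY1 fell from 414 to 118 CPM (-1.81), while MYOD1 and MYOG were at or near 0. PTPRC came to a log2 difference of 7.62 without AS 1 and 8.89 without AS 2, and FAP to 5.68 without AS 1 and 7.35 without AS 3.

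Epithelial keratins KRT8 and KRT18, which pair in simple epithelia, stood at 1.35 and 1.37 CPM where MYCN was high and at 92.9 and 104 CPM in the libraries labelled SK-N-BE(2) (6.13 and 6.28). EPCAM and CDH1 were near 0 in all 6, and the epithelial list summed to 13.0 to 16.4 and 204 to 286 CPM, with 4 of 6 tested higher. Of the melanocyte markers, TYRP1, an enzyme of pigment synthesis, stood at 0.438, 4.38 and 3.6 against 437, 404 and 319 CPM (7.14), while TYR, MLANA and SOX10 were near 0 and the list summed to 5.99 to 9.22 and 333 to 452 CPM. Endothelial markers were lower in 7 of 10 and higher in 1: CDH5 stood at 19.1 against 0.136 CPM (-7.16), and the list summed to 25.2 to 52.4 and 2.98 to 4.60 CPM. The part of other cells in the mesenchymal and matrix results was not tested; in these bulk samples, fewer cells of a type and less RNA per cell cannot be told apart.

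The genes that led by size alone added few other roles. By the difference in mean CPM, the 12 highest in the MYCN-low libraries labelled SK-N-BE(2) were COL3A1, SPARC, RPL8, LDHA, HGF, COL1A1, FLNA, COL6A2, AHNAK, ASS1, C7 and PAM, among them 4 matrix genes. C7, a terminal complement component, stood at 113, 163 and 128 against 857, 972 and 997 CPM (2.81), and AHNAK, a giant scaffold protein, at 119 against 963 CPM (3.01). The ribosomal genes were not of 1 direction: RPL8 was higher (1.08) and RPS3 lower (-1.61), and such genes share reads with near-identical copies. In the other direction, beside MYCN, CHGA and mitochondrial transcripts, DLK1, a membrane ligand of adrenal progenitors, stood at 1237, 1582 and 1635 against 1.25, 1.2 and 1.72 CPM (-10.05), and TUBA1A and HSPA8 differed by -2.12 and -1.28.

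By fold, among protein-coding genes of at least 50 CPM in the higher group, C3, the central complement component, had 2 reads where MYCN was high and 17102 where it was low, a ratio of 8585 (95% counting interval 2376 to 70895). PTX3, a soluble pattern receptor, IFITM3, an interferon-induced membrane protein, and OSMR, the oncostatin M receptor, were higher by 7.27, 7.81 and 7.42. GLI3, the Hedgehog pathway factor, EPHA7, an ephrin receptor, and ADGRG6, an adhesion receptor, were higher by 7.47, 7.56 and 7.34. NELL2, VAT1L and TMEM176A complete the 12 with PTPRC and PRRX1. In the opposite direction, TDRD1, a Tudor protein of the germline, ARAP3, a GTPase-activating protein, and OLFM3, an olfactomedin, had no read in the MYCN-low libraries labelled SK-N-BE(2) and were at least 7663-fold, 5848-fold and 4657-fold lower. Others of the 12 were CLSTN2, a calsyntenin, at 218 CPM against 2 reads in all, RPH3A, rabphilin, at 196 CPM against 2 reads, DPP6, a potassium channel subunit, at 57.7 CPM against 1 read, and KCNT1, a sodium-activated potassium channel, at 111 CPM against 3 reads. PAX5, known as a B-cell factor, differed by -12.36 and DGKK, a lipid kinase, by -11.45. IFITM3 came to a log2 difference of 7.20 without AS 1, OSMR to 6.79 without AS 1 and 8.25 without AS 2, and GLI3 to 6.82 without AS 1 and 8.38 without AS 2. ADGRG6 came to a log2 difference of 6.65 without AS 1, PAX5 to -13.25 without BE(2) 3, and DGKK to -12.94 without BE(2) 3.

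Glycolysis was lower where MYCN was low in most steps but by small amounts. Of 22 genes, 13 were lower, 5 higher and 4 not called in the libraries labelled SK-N-BE(2), the median log2 difference was -0.55, and 1 reached 4-fold (4.55% against 20.7%). At the entry, the glucose transporter SLC2A1 fell by label from 162, 122 and 137 to 78.5, 69.3 and 69.6 CPM (-0.95). The hexokinases differed in opposite directions, HK1 by -0.69 and HK2 by 0.59, and stood at 78 and 16.7 RPKM where MYCN was high and at 48.3 and 25.1 RPKM where it was low, per kilobase of exon. GPI, which makes fructose 6-phosphate, stood at 1002, 999 and 1014 against 307, 294 and 296 CPM (-1.75, SE 0.0563, edgeR adjusted p = 4.49e-09). Of the phosphofructokinases, the muscle form PFKM was lower (-0.87) and PFKL and PFKP were higher (0.49 and 0.97), as was PFKFB3, which makes their activator (0.95, edgeR adjusted p = 0.0507 with a replicate block). PFKFB3 was not called without AS 2, BE(2) 1 or BE(2) 2 (edgeR adjusted p = 0.0553 to 0.0912).

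In the later steps of the pathway TPI1, GAPDH, PGK1 and PGAM1 differed by -0.77, -0.61, -0.46 and -0.56. Of the enolases, the neuronal form ENO2 stood at 272, 319 and 313 against 54.9, 48.2 and 55.2 CPM (-2.51), the common form ENO1 differed by -0.95, and the muscle form ENO3 was higher in the MYCN-low libraries labelled SK-N-BE(2) (8.59 to 27.7 CPM, 1.69), while per kilobase of exon ENO1 was the highest of them in both groups (429 against 222 RPKM). PKM, pyruvate kinase, was not called, at 3182 ± 102 against 3029 ± 242 CPM (SD, n = 3). ALDOA shares 53.5% of its exon length with other genes, which leaves its count uncertain.

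Several genes of lactate handling differed widely. LDHA, the lactate dehydrogenase subunit that favours lactate, stood at 34.9, 51.1 and 51.8 CPM in AS 1, AS 2 and AS 3 and at 1322, 1314 and 1129 CPM in BE(2) 1, BE(2) 2 and BE(2) 3 (4.77, SE 0.181, edgeR adjusted p = 3.83e-07). The 2 groups lay far apart. LDHA is a textbook target of MYC proteins; here it was lower where MYCN was high and MYC low. LDHB, the other subunit, differed by -0.54 (lost with library totals), from counts that are uncertain because it shares 33.4% of its exon length with other genes. The lactate exporter SLC16A3, or MCT4, was higher where MYCN was low (1.34, 3.14 and 2.82 against 33.8, 30.8 and 20.4 CPM, 3.55), and SLC16A1, or MCT1, was lower (317, 297 and 316 against 145, 140.0 and 147 CPM, -1.10).

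The LDHA promoter is shown because it holds both the CACGTG E-box, to which MYC and MYCN bind with MAX, and the cAMP response element. The run is the 250 bases before the gene's start from RefSeq on GRCh38.p14, plus strand, chr11:18394313-18394562, with both motifs in capitals.
LDHA: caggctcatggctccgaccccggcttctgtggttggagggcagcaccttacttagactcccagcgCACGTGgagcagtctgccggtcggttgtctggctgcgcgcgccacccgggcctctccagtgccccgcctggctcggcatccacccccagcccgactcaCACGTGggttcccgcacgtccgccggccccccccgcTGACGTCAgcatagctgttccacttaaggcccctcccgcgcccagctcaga
The E-boxes start 185 and 87 bases before the gene's start and the cAMP response element, TGACGTCA, 51 bases before it. CACGTG reads the same on both strands and was found in 6.49% of all 27305 promoters, 8.79% of those of protein-coding genes tested, 7.07% of the genes at least 4-fold higher and 8.3% of those at least 4-fold lower in the MYCN-low libraries labelled SK-N-BE(2). Of 20 glycolysis promoters 2 held it, and of 18 promoters of pyruvate and lactate genes 3. These motifs were chosen after the values were seen.

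Entry of pyruvate into mitochondria differed at several points. MPC1, a subunit of the mitochondrial pyruvate carrier, stood at 65.2, 60.5 and 69.7 CPM where MYCN was high and at 7.61, 8.15 and 9.18 CPM where it was low (-2.97, SE 0.0964, edgeR adjusted p = 4.69e-09), while its partner MPC2 differed by only -0.24 (lost with library totals). In the pyruvate dehydrogenase complex, DLAT, the acetyltransferase, was lower (-1.84), as were PDHA1, PDHB and DLD (-0.57, -0.64 and -0.86), while PDHX was higher (0.69). Of the kinases that switch the complex off, PDK4 had 0 reads where MYCN was high and 861 where it was low, at least 288-fold higher, PDK2 was higher by 0.78, and PDK1 and PDK3 were not called. Pyruvate carboxylase, PC, was lower (-0.98). Of the 20 genes tested, 6 were higher, 12 lower and 2 not called.

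The citric acid cycle was lower where MYCN was low in 19 of 29 genes, with 5 higher and 5 not called, and none reached 4-fold. CS, citrate synthase, fell by label from 653, 617 and 605 to 342, 299 and 300.2 CPM (-0.99). ACO1, the cytosolic aconitase and an iron sensor, went the other way (1.38). IDH2 differed by -1.65 and IDH1 by -0.36 (lost with library totals). Of the subunits of IDH3, IDH3A and IDH3G were lower (-0.90 and -1.38) and IDH3B was higher (0.96). SUCLG2, the GTP-specific subunit of succinyl-CoA ligase, was higher (1.45), and PCK2, mitochondrial PEP carboxykinase, lower (-1.83). The malate dehydrogenases MDH1 and MDH2 ran opposite, at 0.58 and -0.79. Of the glutamine enzymes, GLUD1 and GOT2 were lower (-0.65 and -0.93).

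Respiratory chain genes of the nucleus were mostly lower by less than 4-fold in the MYCN-low libraries labelled SK-N-BE(2). Complex I had 26 lower, 2 higher and 9 not called of 37 (median -0.66), complexes III and IV 16 lower, 3 higher and 5 not called of 24 (median -0.88), and ATP synthase 12 lower, none higher and 4 not called of 16 (median -0.62). ATP5F1B, the catalytic beta subunit of ATP synthase, stood at 2008, 1875 and 2025 against 866, 875 and 825 CPM (-1.20). NDUFA6 and NDUFA10 of complex I differed by -2.06 and -1.62, and NDUFS5 was higher (0.70). COX4I1, the common form of cytochrome oxidase subunit 4, fell by label from 556, 519 and 545 to 172, 191 and 168 CPM (-1.61), and UQCRH of complex III was higher (0.87).

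Transcripts of the mitochondrial genome were lower too, in 11 of 13, with 1 higher and 1 not called (median -1.52). They took 4.25%, 4.82% and 5.28% of all reads in AS 1, AS 2 and AS 3 and 2.15%, 1.94% and 2.27% in BE(2) 1, BE(2) 2 and BE(2) 3. MT-CO1, a subunit of cytochrome oxidase, stood at 10744, 12688 and 14207 against 3574, 2945 and 3345 CPM (-1.93), and MT-ND1 and MT-ND6 of complex I differed by -2.14 and -2.34. MT-ND3 was higher (0.83) and MT-ND2 was not called (3215 against 3235 CPM).

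**Figure D4:**
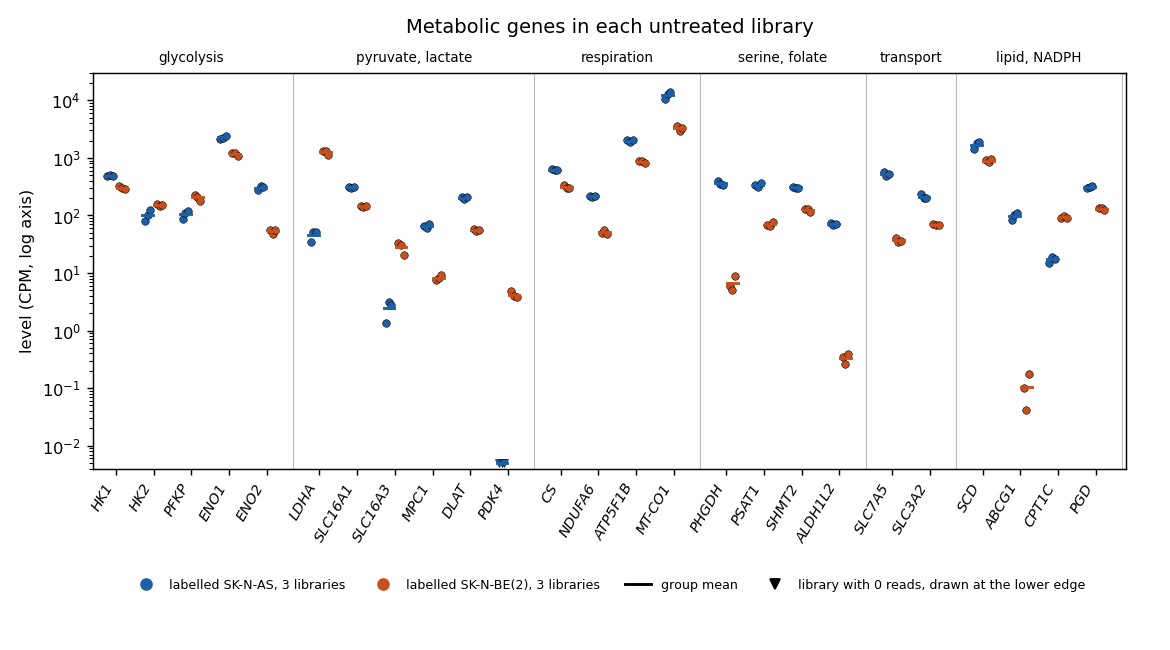
Level in CPM on a log axis of metabolic genes in each of the 6 untreated libraries, coloured by label, with the mean as a bar. LDHA is higher in the 3 MYCN-low libraries labelled SK-N-BE(2), PHGDH and SLC7A5 in the 3 MYCN-high ones labelled SK-N-AS. Triangles at the lower edge stand for libraries with 0 reads, as for PDK4 in AS 1, AS 2 and AS 3.

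The serine pathway was lower where MYCN was low. Of 22 serine, glycine and one-carbon genes tested, 14 were lower, 5 higher and 3 not called, with a median log2 difference of -0.68 and 4 at least 4-fold lower. PHGDH, the first enzyme of serine synthesis, stood at 401, 351 and 333 CPM in AS 1, AS 2 and AS 3 and at 5.98, 5.14 and 8.95 CPM in BE(2) 1, BE(2) 2 and BE(2) 3 (-5.75, SE 0.239, edgeR adjusted p = 2.31e-06). PSAT1 and PSPH, the next enzymes, differed by -2.28 and -0.62. In the mitochondrial folate branch, SHMT2, MTHFD2 and MTHFD1L were lower, at -1.30, -1.11 and -2.29, and ALDH1L2, which oxidises formyl-folate there, stood at 74.2, 69.6 and 71.6 against 0.346, 0.262 and 0.399 CPM (-7.73). The cytosolic SHMT1 and MTHFD1 differed by -0.29 (lost with library totals) and -0.75. Around methionine, AHCY was lower (-1.10), MTR, methionine synthase, and CTH, of cysteine synthesis, were higher (0.66 and 1.20), and CBS was not called. CBS was called, and lower, without AS 3 or BE(2) 3 (edgeR adjusted p = 0.023 and 0.0254).

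Purine and pyrimidine synthesis was lower where MYCN was low in 20 of 31 genes tested, with 4 higher and 7 not called (median -0.47). PRPS1, which makes the ribose precursor, and PFAS, of the purine ring, both differed by -1.33, and IMPDH1, of guanine nucleotides, by -1.54. PAICS and CAD, large enzymes of purine and pyrimidine synthesis, stood at 639 to 420.1 CPM and 365 to 221 CPM by label (-0.60 and -0.73). RRM2, the regulated subunit of ribonucleotide reductase, was lower (-1.26), whereas RRM1 was slightly higher (0.25). NT5E, the surface enzyme CD73 that makes adenosine and a marker of mesenchymal cells, rose by label from 44.5, 40.6 and 39.3 to 154, 160.4 and 108 CPM (1.76). GMPS (-0.01, or 0.21 with library totals), IMPDH2 (0.01) and TK1 (0.05) were not called.

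Carriers of large neutral amino acids differed in both directions, and SLC7A5, the one read most, was lower where MYCN was low. SLC7A5, or LAT1, which imports leucine, stood at 571, 488 and 527 CPM where MYCN was high and at 41.1, 34 and 35.5 CPM where it was low (-3.84, SE 0.0951, edgeR adjusted p = 1.01e-09). Its heavy chain SLC3A2 differed by -1.61, and SLC7A6 and SLC43A2, other carriers of neutral or dibasic amino acids, by -2.41 and -1.97. SLC7A6 shares 55.6% of its exon length with other genes, which leaves its count uncertain. SLC7A8 and SLC43A1, further carriers of large neutral amino acids, were higher at low levels (0.477 to 1.64 CPM, 1.78, and 2.12 to 4.25 CPM, 1.01). Of the glutamine carriers, SLC1A5, a known MYC target, differed by only -0.22 (lost with library totals), SLC38A1 was lower (-0.87) and SLC38A2 higher (238 to 392 CPM, 0.72). SLC7A11, the cystine carrier that feeds glutathione, was low in both groups, at 7.7, 9.13 and 9.11 against 13.2, 11 and 10.7 CPM (0.43). Of 24 tested, 7 were higher, 13 lower and 4 not called. SLC1A5 was not called without AS 1, BE(2) 2 or BE(2) 3 (edgeR adjusted p = 0.0512 to 0.1). SLC7A11 was not called without BE(2) 1 (edgeR adjusted p = 0.0661).

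ASS1, which makes argininosuccinate and frees cells from arginine in the medium, was higher in the MYCN-low libraries labelled SK-N-BE(2), from 341, 301 and 299 to 1028, 1414 and 962 CPM (1.85), and ASL, the next enzyme, was lower (-0.72). The 3 creatine kinases tested were lower: CKB fell by label from 692 to 256 CPM (-1.43), and the mitochondrial CKMT1A and CKMT1B, near-identical copies whose reads cannot be told apart, by -3.38 and -3.21 on the log2 scale. BCAT1, the cytosolic branched-chain transaminase, was lower (-1.17). PYCR1 and ALDH18A1, of proline synthesis, differed by -0.82 and -0.63. Of the 24 genes tested in this list, 7 were higher, 13 lower and 4 not called.

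Fatty acid genes were split evenly, with 15 higher, 15 lower and 2 not called of 32 tested, and 10 reached 4-fold (31.2%), so single members differed widely while the median lay at -0.06 (0.15 with library totals). FASN, fatty acid synthase, was not called (1409 ± 159 against 1289 ± 123 CPM), ACACA, which supplies malonyl-CoA, was lower (-1.10) and its mitochondrial form ACACB was higher (1.66). Among the desaturases, SCD, which makes monounsaturated fat, fell by label from 1703 to 898 CPM (-0.92), and FADS1, FADS2 and FADS3, of polyunsaturated fat, were higher (0.56, 0.99 and 2.26). Remodelling enzymes parted widely: MBOAT1 rose by label from 0.206, 0.203 and 0.369 to 12.3, 11.9 and 12.2 CPM (5.55), and LPCAT2 fell from 113, 102 and 100.2 to 4.91, 5.17 and 4.48 CPM (-4.44). For storage and uptake, DGAT2 and FABP5 were lower (-4.97 and -2.66), the lipid droplet coat PLIN2 was higher (2.19), and CD36, a fatty acid receptor, had 3 reads against 1278, a ratio of 428 (95% counting interval 146 to 2077). FASN was called without AS 1 (-0.24, edgeR adjusted p = 0.0362).

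Fatty acid oxidation had 12 higher, 9 lower and 4 not called of 25 tested. The 3 carnitine palmitoyltransferases tested were higher in the MYCN-low libraries labelled SK-N-BE(2). Of those that admit fatty acids to mitochondria, CPT1A rose by label from 35.3, 36.5 and 29.1 to 70.1, 69.7 and 66.7 CPM (1.03), and CPT2 differed by 1.26. The brain form CPT1C, which is not counted with these 2, rose from 15, 19.2 and 17.3 to 89.1, 99.7 and 89.4 CPM (2.43). HADHA, a subunit of the trifunctional protein, was lower (611 to 257 CPM, -1.25), and its partner HADHB less so (-0.40).

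Cholesterol genes had 7 higher, 12 lower and 9 not called of 28, and the median was -0.08 (0.13 with library totals). SREBF2, the master factor of the pathway, was lower in the MYCN-low libraries labelled SK-N-BE(2), from 592, 640.1 and 621 to 168, 157 and 174 CPM (-1.89), as was SREBF1 (-1.31), and their target SQLE differed by -0.59. EBP and SC5D, late enzymes, were lower, at -1.50 and -1.86, and DHCR7, whose substrate 7-dehydrocholesterol is known to protect membranes from peroxidation, was not called (-0.03, 0.19 with library totals). The exporters differed in opposite ways: ABCG1 stood at 83.7, 103 and 112 against 0.0988, 0.0414 and 0.179 CPM (-9.84), and ABCA1 rose by label from 1.96 to 9.63 CPM (2.31). APOE, which accepts the lipid, stood at 0.373, 2.61 and 3.74 against 47.4, 55.1 and 37.1 CPM (4.40). ABCG1 came to a log2 difference of -10.50 without BE(2) 3, and APOE to 4.99 without AS 3.

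Genes of NADPH supply differed in both directions. H6PD, which makes NADPH in the endoplasmic reticulum, was higher where MYCN was low (1.82). PGD, a dehydrogenase of the pentose phosphate pathway, was lower (304, 317 and 320.7 against 134, 132 and 126 CPM, -1.26), and so were TKT (-0.56), the NAD kinase NADK (-0.82) and the mitochondrial transhydrogenase NNT (-0.71). TALDO1 and RPE were not called, and PGLS and RPIA were higher (0.61 and 0.78). Of 11 tested, 5 were higher, 4 lower and 2 not called.

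Of 14 NAD and tryptophan genes tested, 7 were higher, 5 lower and 2 not called, and 6 reached 4-fold (42.9%). NAMPT, the rate-limiting enzyme of NAD salvage, did not differ by the test (94.8 ± 11.9 against 95.2 ± 11.6 CPM). NMNAT2, the axonal enzyme that completes NAD and protects axons, stood at 198, 212 and 199 against 8.28, 10.8 and 6.27 CPM (-4.59), and SARM1, which breaks NAD down in axons, was lower too (-2.21). NAPRT, of the nicotinic acid route, and NMRK1, of nicotinamide riboside, were higher in the MYCN-low libraries labelled SK-N-BE(2) (1.70 and 2.65). NNMT, which methylates nicotinamide and marks mesenchymal cells, rose by label from 0, 0.172 and 0.185 to 5, 6.41 and 3.89 CPM (5.47). TDO2, which opens the tryptophan ring, differed by 7.44, while IDO1, of the same step, was at or near 0. NNMT came to a log2 difference of 4.79 without AS 1, and TDO2 to 6.77 without AS 1 and 9.44 without AS 3.

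Gangliosides are sialic acid lipids of nerve cells, and GD2 among them is a target of neuroblastoma therapy. Of 19 genes, 8 were higher, 10 lower and 1 not called in the MYCN-low libraries labelled SK-N-BE(2), and 8 reached 4-fold (42.1%). ST8SIA1, the GD3 synthase before GD2, was low in both groups (0.386, 0.437 and 0.631 against 0.955, 1.08 and 2.54 CPM, 1.66), and B4GALNT1, the GM2 and GD2 synthase, fell by label from 44.1, 54.1 and 50 to 10, 9.45 and 9.65 CPM (-2.35). The other sialyltransferases differed in both directions: ST8SIA3 stood at 84.9 against 0.0183 CPM (-11.97), ST6GALNAC5 was lower (-3.50), and ST8SIA5, ST6GALNAC3 and ST3GAL1 were higher (4.99, 3.66 and 6.45). At the lactosylceramide step, B4GALT5 and B4GALT6 ran opposite (-1.02 and 3.63). GM2A, which helps degrade GM2, was higher (3.72). ST8SIA1 came to a log2 difference of 1.06 without BE(2) 3, ST8SIA3 to -15.50 without BE(2) 3, and ST8SIA5 to 4.32 without AS 1 and 5.62 without AS 3.

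Retinoids drive neuroblastoma differentiation and are used in therapy. Of 22 genes tested, 11 were higher, 8 lower and 3 not called. CRABP2, which delivers retinoic acid to the nucleus, rose by label from 12.3, 20.8 and 21.6 to 583, 673 and 618 CPM (5.10), and the receptors RARG and RARB were higher where MYCN was low (1.76 and 1.88), RARA less so (0.50). STRA6, of retinol uptake, was lower (-2.14), and ALDH1A3, which makes retinoic acid, was higher (0.385 to 6.85 CPM, 4.17).

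Genes listed here for ferroptosis, the death by lipid peroxidation that GPX4 prevents, differed by less than 4-fold between the lines. MBOAT1, which differed more widely, was counted with the fatty acid genes above and is not in this list. Of 28 tested, 8 were higher, 14 lower and 6 not called, none reached 4-fold, and the median was -0.20 (0.02 with library totals). On the protective side, AIFM2, or FSP1, was higher in the MYCN-low libraries labelled SK-N-BE(2) (19, 17.3 and 15 against 27.1, 24.7 and 24.2 CPM, 0.57), PRDX6 too (0.60), and GCH1, TXNRD1 and GSR were lower (-0.82, lost with library totals, -0.65 and -0.38). The glutamate-cysteine ligase subunits ran opposite, GCLC by -0.26 (lost with library totals) and GCLM by 0.63. NFE2L2, or NRF2, the factor of the antioxidant response, rose by label from 60.2, 59.5 and 57.4 to 138, 130 and 117 CPM (1.12), and its inhibitor KEAP1 was not called (-0.03, 0.19 with library totals). For iron, the ferritins FTH1 and FTL were higher (1.08 and 0.60) and the importers TFRC and SLC11A2 and the exporter SLC40A1 lower (-0.55, -0.96 and -1.47). On the side of lipid substrates, ACSL4 fell by label from 96, 102 and 109.7 to 71.4, 62 and 60 CPM (-0.67), LPCAT3 by -0.50 and POR by -0.39 on the log2 scale. FTH1 and LPCAT3 share 62.4% and 65.6% of their exon length with other genes, which leaves their counts uncertain. GCH1 was not called without BE(2) 1 or BE(2) 2 (edgeR adjusted p = 0.0573 to 0.058).

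**Figure D5:**
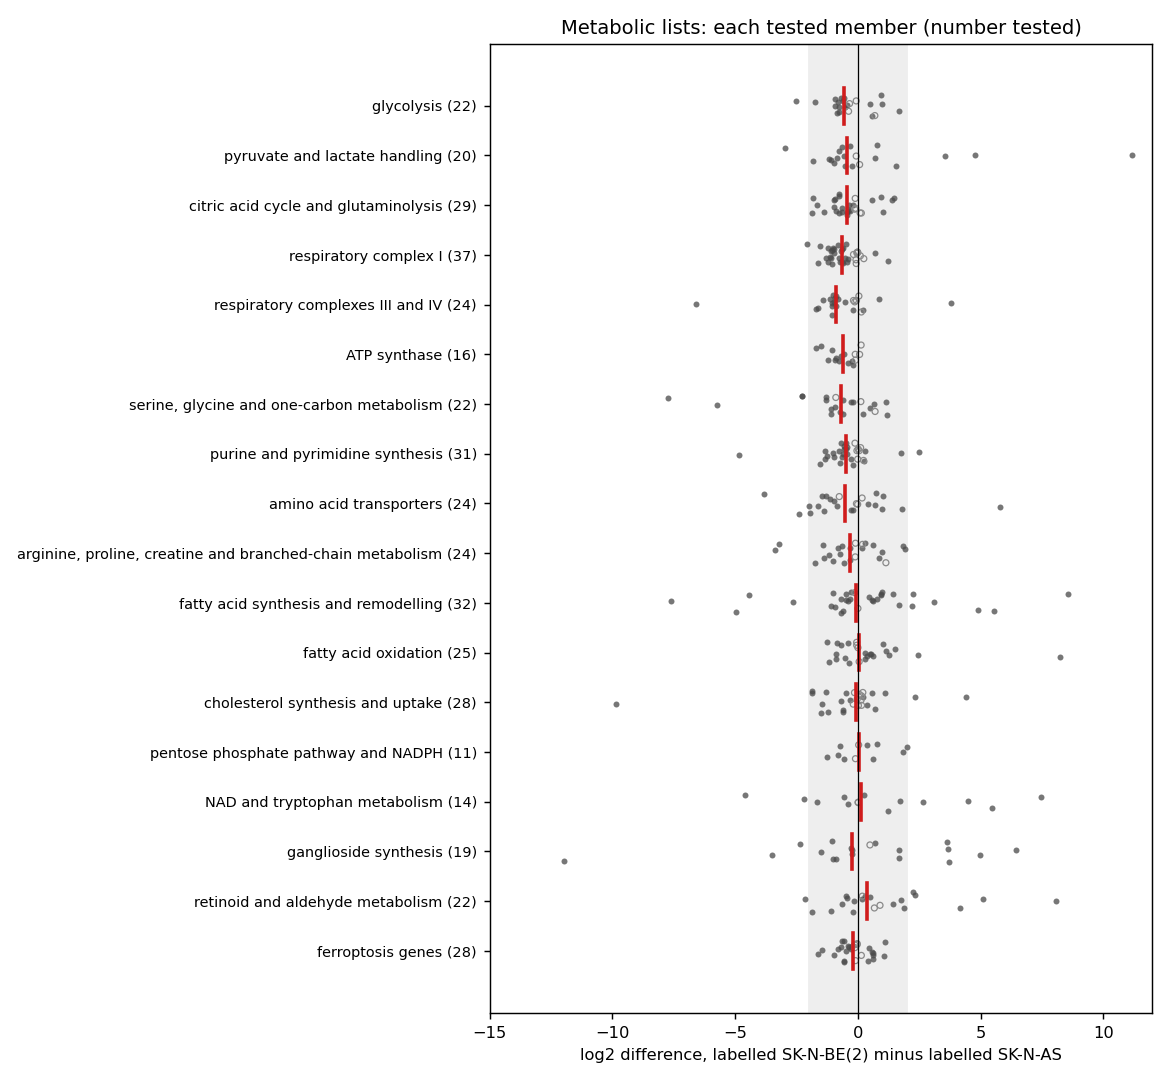
Log2 difference by label, SK-N-BE(2) minus SK-N-AS, of each tested member of the metabolic lists (x axis), with 1 row per list, a bar at the list's median, open circles for members not called and a grey band for less than 4-fold. Of 422 genes 56 lie beyond 4-fold, and medians run from -0.88 for complexes III and IV to 0.39 for retinoid genes. Fitted values of genes with 0 reads in a group depend on the prior count.

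Set side by side, the 16 identity lists held 343 different tested genes, of which 90.4% were called and 168 (49%) reached 4-fold, 82 higher and 86 lower in the MYCN-low libraries labelled SK-N-BE(2). The 18 metabolic lists held 422 genes, of which 82.5% were called and 56 (13.3%) reached 4-fold, 31 higher and 25 lower. Over all protein-coding genes these shares were 78.4% and 20.7%. The median size of the difference, without its sign, was 1.98 on the log2 scale for identity genes, 0.77 for metabolic genes and 0.74 for all protein-coding genes. The called metabolic genes were lower in 232 cases and higher in 116 where MYCN was low, while the identity genes were lower in 161 and higher in 149. The lists were chosen with results of these data known, so their shares describe these genes and are no test.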

How the data were processed

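Messenger RNA of untreated neuroblastoma cells was measured in 6 of 12 libraries, 3 per line label. The authors deposited whole-number counts per gene without normalization. The submitters' processing notes name GRCh38 and, without order, featureCounts 2.0.5, HISAT2 2.2.1, FastQC and a Trimmomatic version of 1.4. The counting settings for strand and overlapping genes, not given in the sources used here, could move counts of overlapping genes. Gene names for 61399 of 61552 identifiers came from a name reference and 145 from GENCODE release 29, which also gave coordinates and exon lengths, and 8 stayed unnamed.

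The tests used R 4.3.3 and edgeR 4.0.16, with filterByExpr on the 6 libraries, TMM scaling, and the robust quasi-likelihood test (glmQLFit, glmQLFTest, two-sided, 4 residual degrees of freedom, common dispersion 0.02) with Benjamini-Hochberg adjustment over 18872 genes. CPM use TMM-scaled totals, SD is over 3 libraries, and RPKM divide CPM by exon length. SE is the absolute log2 difference divided by the square root of the F value of the quasi-likelihood test. It may understate counting error where a group has few reads. Genes under an adjusted p of 0.05 are those called. A group at 0 reads was set to a floor of 3 reads over the group, and intervals (95%) and floors cover counting error only. Alternatives were DESeq2 1.42.0, its size factors, library totals, no filter, all 12 libraries, a replicate block, glmTreat against a 2-fold change, and leaving out libraries. Same-numbered libraries share a batch label, but the main test used the group only and did not pair them. The replicate block is the alternative that does. Deviations of same-numbered libraries from the group means correlated at -0.0831, -0.0124 and -0.0353. The procedure was tested on simulated data.

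The members, the 40 lists (910 different genes) and the tests were chosen with earlier results of these data known. The naming rule took MYCN, MYC and GPX4. It added the top 12 protein-coding genes in each direction by difference in mean CPM (called, at least 2-fold), and the top 12 by fold (called, at least 50 CPM in the higher group). From each list it took up to 6 called members of at least 5 CPM with the largest fold, up to 4 with the highest level, partners of these in a step or complex, and every member of lists of up to 15. Other genes named were chosen after their values were seen. Some members of the lists are counted but not reported here by name. Promoter sequences came from RefSeq on GRCh38.p14.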

Additional observations from a re-analysis of the deposited data

How the results depend on the processing

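MYCN lay between -14.02 and -14.64 under every alternative run. GPX4 was called under none of them and lay from -0.19 to -0.08, except with library totals (0.12, edgeR adjusted p = 0.0912). Genes called higher in the MYCN-low libraries labelled SK-N-BE(2) numbered 5883 to 8144 and genes lower 5291 to 7154 over the alternatives, within 1.5 times the main counts. At 4-fold the counts were 2205 to 2772 and 1607 to 2325, and glmTreat, which tests against a 2-fold change and is another rule, called 2930 higher and 2577 lower. Leaving out 1 library gave 6349 to 6488 higher and 6483 to 6712 lower.

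Scaling moved directions. With library totals the median of all genes was 0.231, HAND2 was 0.01 (edgeR adjusted p = 0.856), and DHCR7, KEAP1 and GMPS, not called before, were called higher at 0.19, 0.19 and 0.21. TAGLN ran from -0.42 to 0.73 when 1 library was left out. List medians changed sign with library totals for the MYC network (0.18), cholesterol (0.13), fatty acid synthesis (0.15) and ferroptosis genes (0.02). They also did without AS 2 and AS 3 together for the MYC network (0.06), without AS 1, BE(2) 2 or BE(2) 3 for fatty acid synthesis (0.03, 0.16 and 0.04), and without BE(2) 2 for the pentose phosphate list (-0.02). With the replicate block 12565 of 13321 called genes kept their call and direction, 6334 higher and 6311 lower in all, and among the genes named no call changed beside those of MGA, CYRIA, ZEB2, PFKFB3, ACTA2 and ANKRD1. Without AS 2 and AS 3 the lone library of that label is assumed to vary like the others. Genes at a few reads in a group have no firm fold at this depth.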

Other observations

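Differences ran along chromosomes as well as along gene lists. Tested protein-coding genes were placed in windows of 25 Mb by their GENCODE start, and 116 windows with at least 30 genes had medians from -1.22 to 0.93 on the log2 scale, SK-N-BE(2) minus SK-N-AS by label, where the median of all such genes was 0.016. On chromosome 11 the windows from 0 to 25 and from 25 to 50 Mb had medians of 0.73 and 0.72, with 119 genes higher and 28 lower of 168, and 69 higher and 11 lower of 92. The windows from 75 to 100 and from 100 to 125 Mb had medians of -1.21 and -1.22, with 10 higher and 63 lower of 86, and 13 higher and 104 lower of 133. The MYCN-low libraries labelled SK-N-BE(2) were thus higher over the start of this chromosome and lower over its end.

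Chromosome 22 was lower over its whole length in the same libraries, with a median of -0.93 and 50 genes higher and 232 lower of 333 tested. Chromosome 18 had a median of 0.68, with 135 higher and 30 lower of 191, and chromosome 13 a median of 0.53. On chromosome 6 the windows from 100 to 125, from 125 to 150 and from 150 to 175 Mb had medians of -0.64, -1.0 and -0.66, the middle one with 16 genes higher and 49 lower of 72. On chromosome 17 the medians went from -0.46 in the first window to 0.66 in the window from 75 to 100 Mb. On chromosome 2, which holds MYCN in its first window, that window had a median of -0.32, with 20 genes higher and 42 lower of 79. These windows were looked at after the gene values were seen, copy number was not measured, and genes of a window are not independent.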
